A study of Mus musculus with 16 samples.

Results

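Cortical thymic epithelial cells (cTEC) were compared with thymic dendritic cells (tDC) on 4 of the 16 arrays of a study of promiscuous gene expression in the mouse thymus. The 2 cTEC arrays, titled WT-cTEC, and the 2 tDC arrays, titled WT-tDC, were chosen by title alone, and each held total RNA of wild-type cells sorted by flow cytometry. The other 12 arrays held wild-type medullary epithelium (mTEC), wild-type thymic macrophages (tMPh), and medullary epithelium of high or low CD80 from wild-type and Aire-knockout mice, 2 arrays a group. The labels give no strain, age, sort marker or number of animals. Whether the paired arrays of a cell type stand for different mice is not stated either. The p-values rest on the spread between arrays of a group, taken over all 16 arrays, and that spread may be technical. No treatment is named, and the labels do not state which question the pair of cell types was meant to answer.

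Cortical epithelium forms the outer meshwork of the thymus. It attracts progenitors from the blood, drives them into the T cell lineage through Notch ligands, and displays self peptides on MHC class I and II molecules for positive selection. Dendritic cells of the thymus are bone marrow-derived, lie mostly in the medulla and at its border, and display self antigens for negative selection. Both are therefore antigen-presenting cells of one organ, 1 epithelial and 1 haematopoietic, and they are known to use different proteases to prepare class II peptides.

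Signals are linear Affymetrix intensities as deposited, scaled so that the mean signal of an array, after trimming 2% at each end, was 100.06 to 100.07. The highest signal was 2518 and 5461 on the cTEC arrays and 3524 and 4788 on the tDC arrays. Probe sets 3′ to 5′ of Gapdh, a measure of RNA integrity, stood at ratios of 7.34 and 14.8 in cTEC and 3.88 and 15.4 in tDC. Of 12422 probe sets that are not controls, 9319 exceeded a signal of 17.3 on at least 2 of the 16 arrays and were tested with limma on log2(signal + 4.8). A difference is cTEC minus tDC on that scale, given ± SE, and it understates the change of dim genes. A gene is called higher or lower where its adjusted p (limma, Benjamini-Hochberg) was under 0.05. The SE and p draw on the spread within all 8 groups of the 16 arrays, so they do not describe the cTEC and tDC arrays alone. With 2 arrays a group, the number of arrays limits the precision: the median SE was 0.42.

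The labels were checked first against a marker of each cell. Pax1, a paired-box transcription factor of the thymic epithelial lineage, had signals of 1349.7 and 1222 on the cTEC arrays against 24.4 and 20.2 on the tDC arrays, a difference of 5.58 ± 0.46 (adjusted p = 2.41e-06). Itgax, which encodes CD11c, the integrin by which dendritic cells are usually gated, had 23.9 and 27.3 in cTEC against 1188 and 1296 in tDC, a difference of −5.36 ± 0.36 (adjusted p = 6.51e-07). Both genes separated the arrays as the titles do, with no overlap. Thymocyte and T cell genes, 21 in all, summed to 5784 and 9770.2 in cTEC against 3910 and 3799 in tDC. Transcripts of Ptprc, the leukocyte antigen CD45, were nevertheless read in both groups, at 124 and 445 in cTEC and 214 and 950.5 in tDC (−0.92 ± 0.80, adjusted p = 0.529), and the groups overlapped. Its sign turned without tDC array 2, and a fit over 8 arrays with the sample number as a block gave an adjusted p of 0.0421. In bulk samples, fewer cells of a type and less RNA per cell cannot be told apart.

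In all, 983 of the 9319 probe sets (10.5%) were higher and 669 (7.18%) were lower in cTEC, while 7667 did not pass. Taking the brightest probe set of each of 6922 genes, 795 genes (11.5%) were higher and 553 (7.99%) lower. The median difference over all tested probe sets was 0.09. Differences were large: the median size of a call was 1.99 on the log2 scale, 115 calls lay above 4 and 68 below −4. Many calls were between a clear signal and a dim one, since 476 of the higher probe sets averaged at most 17.3 in tDC and 187 of the lower ones averaged at most 17.3 in cTEC. Every one of the 1652 calls had the same sign in array 1 minus array 1 and in array 2 minus array 2. The threshold largely fixed this, since the smallest called difference was 0.81 in size. Counts fell whichever of the 4 arrays was left out. Such a fit leaves 1 array in a group and did not use the sample number as a block. For the calls lost there, here and below, fewer arrays and the signal of the array left out cannot be told apart.

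**Figure D1:**
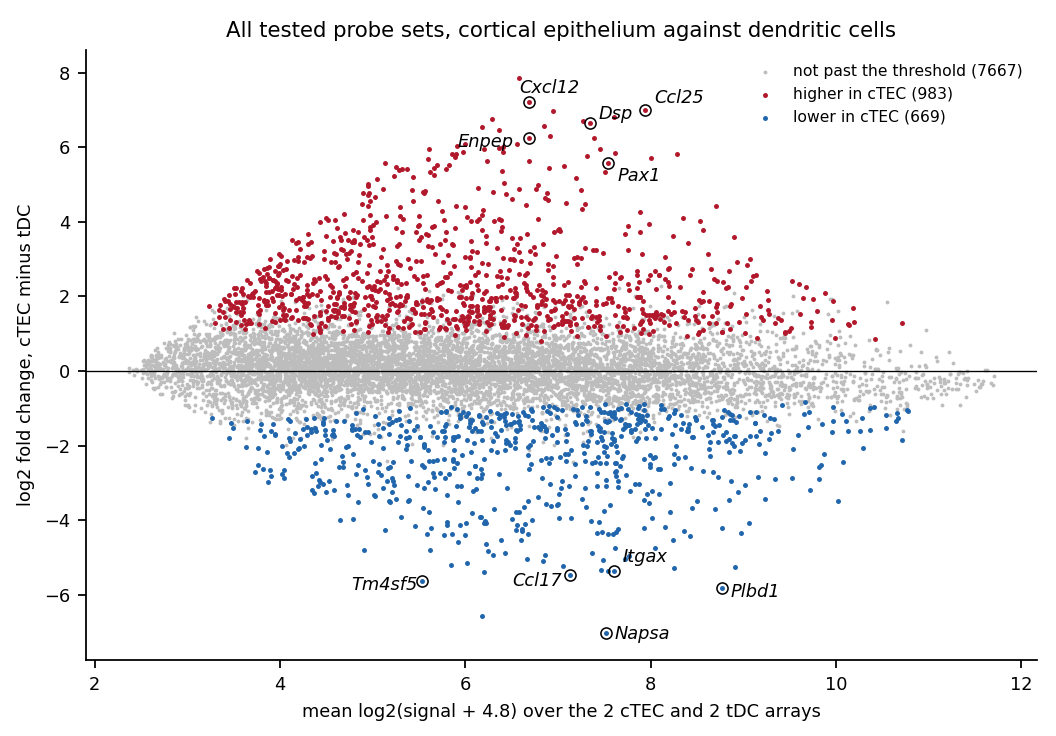
Difference between cTEC and tDC (vertical axis, log2 units, cTEC minus tDC) against the mean log2(signal + 4.8) of the 4 arrays (horizontal axis) for the 9319 tested probe sets, with the 983 higher and 669 lower calls in colour. Pax1 at 5.58 and Itgax at −5.36 lie near the outer edges of the 2 called clouds.

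The 15 named genes of largest positive difference were Cxcl12, Ccl25, Lamb3, Gas6, Krt18, Dsp, Tnc, Krt7, Krt17, Lmo7, Perp, Enpep, Spock2, Fmo1 and Mmp9, between 7.21 and 6.04. Gas6, a ligand of the Tyro3, Axl and Mer receptors, had 1929 and 2201 in cTEC against 16.7 and 10.8 in tDC. Lmo7, a LIM-domain protein of cell junctions, had 919.8 and 1237 against 5.1 and 13.6, and Perp, a desmosomal membrane protein, 1458 and 1442 against 12.3 and 16.9. Spock2, a matrix proteoglycan, had 349.7 and 779.7 in cTEC against 2.8 and 3.1 in tDC, and Fmo1, a flavin monooxygenase, 755 and 787 against 6.8 and 6.6. On all of these the lower cTEC array lay far above the higher tDC array, which follows from choosing the largest differences.

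The 15 named genes of largest negative difference were Napsa, Plbd1, Tm4sf5, Ccl17, Gpr137b, Itgax, Il1b, Adam8, Mpeg1, Ly86, Ppfia4, Lgals3, Traf1, Pkib and Tyrobp, between −7.01 and −5.04. Napsa, the aspartic protease napsin A, had 2.2 and 32.4 in cTEC against 2391 and 1808 in tDC, a difference of −7.01 ± 1.09 (adjusted p = 0.000338). Plbd1, a phospholipase B-like protein, had 42.5 and 66 against 2779.8 and 3881, and Tm4sf5, a membrane protein with 4 transmembrane spans, 0.9 and 2.8 against 295 and 351. Mpeg1, the pore-forming perforin-2, had 55.6 and 96.5 in cTEC against 2334 and 3772 in tDC. Adam8, a membrane metalloprotease, had 27.7 and 69.5 against 2276 and 1584, and Traf1, an adaptor of TNF receptors, 13.3 and 48 against 1333 and 796. Some probe sets that the annotation does not pair with 1 gene were as extreme, up to 7.86 and down to −6.56, and stay unnamed.

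**Figure D2:**
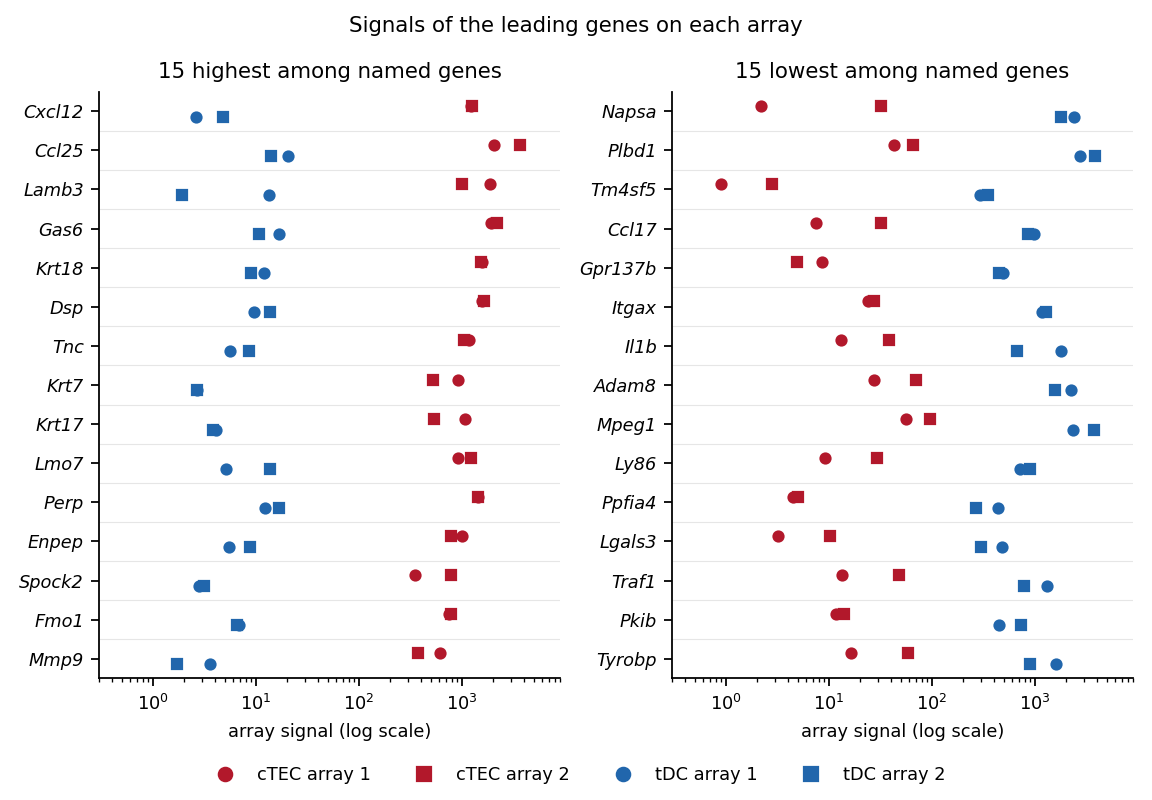
Signals of the 15 highest (left panel) and 15 lowest (right panel) named genes on each array, 1 gene a row, with array signal on a log axis. Red points are cTEC and blue points tDC, circles array 1 and squares array 2. The 2 groups do not overlap for any of the 30 genes, which follows from choosing the largest differences on these arrays.

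Promoters of 4 genes are shown because they stand for both directions of the contrast: Pax1 and Enpep for cTEC, Itgax and Batf3 for tDC. Each is the 250 bases before the gene's start in the RefSeq table for GRCm38.p6, printed along the gene's own strand. Capitals mark CCAAT or its reverse complement ATTGG, a common promoter element, in Pax1, Enpep and Itgax, and GAGGAAG, an ETS-type core of the kind PU.1 binds, in Batf3. They lie at chr2:147364744-147364993 (plus strand), chr3:129332750-129332999 (minus strand), chr7:128129300-128129549 (plus strand) and chr1:191098164-191098413 (plus strand).
Pax1: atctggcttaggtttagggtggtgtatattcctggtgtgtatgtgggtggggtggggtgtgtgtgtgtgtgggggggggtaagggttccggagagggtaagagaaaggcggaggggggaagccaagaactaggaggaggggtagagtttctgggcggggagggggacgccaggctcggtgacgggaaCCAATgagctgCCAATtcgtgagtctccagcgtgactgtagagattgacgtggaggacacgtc
Enpep: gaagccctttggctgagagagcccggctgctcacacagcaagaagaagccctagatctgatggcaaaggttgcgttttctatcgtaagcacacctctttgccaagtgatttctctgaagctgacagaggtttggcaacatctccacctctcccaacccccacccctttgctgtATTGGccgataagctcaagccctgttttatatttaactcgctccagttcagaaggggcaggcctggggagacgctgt
Itgax: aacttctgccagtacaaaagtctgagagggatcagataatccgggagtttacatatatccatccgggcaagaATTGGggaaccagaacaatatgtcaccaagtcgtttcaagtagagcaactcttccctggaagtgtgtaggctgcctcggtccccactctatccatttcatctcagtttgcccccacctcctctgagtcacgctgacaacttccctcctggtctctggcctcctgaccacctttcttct
Batf3: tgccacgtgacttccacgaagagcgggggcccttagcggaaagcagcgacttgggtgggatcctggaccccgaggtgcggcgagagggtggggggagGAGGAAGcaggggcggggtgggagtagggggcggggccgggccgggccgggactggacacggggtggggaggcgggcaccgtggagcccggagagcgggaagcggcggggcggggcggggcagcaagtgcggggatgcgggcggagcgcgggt

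Both strands of such windows were searched for each motif. GAGGAAG was in 13% of 631 promoters of genes higher in cTEC, 16.5% of 454 of genes lower in cTEC, 13.6% of 5556 promoters of tested genes and 12% of all 27025 promoters. CCAAT was in 41.0% of the higher genes' promoters, 39.2% of the lower genes', 39.9% of tested genes' and 37.5% of all. AACCGGT, a core of the kind grainyhead-like epithelial factors bind, was in 0.792%, 1.54%, 1.26% and 0.951% of the same 4 sets. Among genes named by rule, GAGGAAG was in 7 of 39 promoters of higher genes and 8 of 54 of lower genes, and Itgax lacked it. None of these motifs contains another. These shares are descriptions of letters in a window and were not tested.

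Called transcription factors of thymic epithelium lay on the cTEC side. Of 14 tested, 8 were higher and 6 did not pass, with a median difference of 2.04 against 0.09 over all tested probe sets. The counts of this and the later lists stand beside 11.5% higher and 7.99% lower over all tested genes. The higher count was 4 with a stricter filter, and the median 1.08 with the constant at the 40th percentile. After Pax1, the largest was Trp63, the p63 factor of stratified epithelia, with 418 and 268 in cTEC against 12.2 and 19.7 in tDC (4.06 ± 0.47, adjusted p = 3.08e-05). Foxn1, the factor without which the thymic epithelium does not mature, read low but apart, at 42.2 and 33.7 in cTEC against 2.8 and 2.1 in tDC (2.55 ± 0.36, adjusted p = 0.000158). Meis1, a homeobox factor, had 33.6 and 53.1 against 0.8 and 0.7 (3.09 ± 0.57, adjusted p = 0.00136). Gata3, which epithelium shares with T cells, had 9 and 28.6 in cTEC and 2.8 and 14.3 in tDC and did not pass (adjusted p = 0.439).

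Of 13 cortical surface and enzyme genes, 9 were higher and 4 did not pass, with a median difference of 3.87. Cxcl12, the chemokine that draws CXCR4-bearing progenitors, had 1245 and 1249 in cTEC against 2.6 and 4.8 in tDC (7.21 ± 0.59, adjusted p = 2.07e-06). Ccl25, the CCR9 ligand, had 2083 and 3715 against 20.4 and 13.9 (7.0 ± 0.70, adjusted p = 9.45e-06). Enpep, the surface aminopeptidase that the antibody 6C3 detects on cortical epithelium, had 999 and 789.9 in cTEC against 5.5 and 8.8 in tDC (6.24 ± 0.59, adjusted p = 5.45e-06). For each, the 2 arrays of a group lay close beside the gap between groups. Another tested probe set of Enpep did not pass. Wnt4, a secreted Wnt ligand, had 285 and 244 against 1.7 and 1.4 (5.40 ± 0.86, adjusted p = 0.000415). Ackr4, a receptor that takes up Ccl19, Ccl21 and Ccl25, had 294 and 81.9 in cTEC against 3.9 and 12 in tDC (3.73 ± 0.60, adjusted p = 0.00046). Kitl, the stem cell factor, had 95.4 and 189.7 in cTEC against 2.5 and 0.5 in tDC, while its receptor Kit went the other way, with 10.6 and 16.9 against 256 and 339 (−4.03 ± 0.35, adjusted p = 3.13e-06).

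Ly75, which encodes DEC-205, is a textbook marker of both cell types. It had 1456 and 2057 in cTEC against 154 and 754 in tDC and was higher in cTEC (2.32 ± 0.59, adjusted p = 0.0124). The tDC arrays differed widely and the call was lost without cTEC array 2 (adjusted p = 0.0901) or tDC array 1 (adjusted p = 0.171), in a fit of the 4 arrays alone (adjusted p = 0.0775) and in one of the 8 unfractionated wild-type arrays (adjusted p = 0.0613). Cd83, a membrane protein of mature dendritic cells that cortical epithelium also carries, had 1510.4 and 1596 in cTEC and 2137 and 1575 in tDC and did not pass (−0.24 ± 0.35, adjusted p = 0.745). Both genes are bright on all 4 arrays, unlike most of the markers above.

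Called keratins and desmosome-linked filament genes lay on the cTEC side: 9 of 15 were higher and 6 did not pass, with a median of 1.77. Krt8 and Krt18, the keratin pair of simple epithelia, had 1846 and 2938 and then 1594 and 1537 in cTEC, against 59.8 and 22 and then 12 and 9 in tDC. Their differences were 5.81 ± 0.67 (adjusted p = 2.88e-05) and 6.69 ± 0.81 (adjusted p = 4.41e-05). Krt7 and Krt17, keratins of ductal and basal cells, differed by 6.55 and 6.46. Dsp, desmoplakin, which ties keratin to desmosomes, had 1588 and 1643 in cTEC against 9.5 and 13.6 in tDC, a difference of 6.64 ± 0.31 (adjusted p = 3.94e-08). Krt10 and Krt19 also passed, but Krt10 lost its call without cTEC array 1, cTEC array 2, tDC array 1 or tDC array 2 (adjusted p = 0.0688 to 0.208) and Krt19 without cTEC array 1, tDC array 1 or tDC array 2 (adjusted p = 0.0506 to 0.092). Krt5, Krt14 and Krt15 stayed under the filter.

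Among 21 junction and adhesion genes, 10 were higher and 1 was lower (median 1.07). Lamb3 and Lama3, chains of laminin-332 that anchor epithelia to the basement membrane, had 1870.3 and 1014 and then 464 and 392 in cTEC, against 13.5 and 1.9 and then 3.1 and 3.5 in tDC. Their receptor chain Itgb4, which forms hemidesmosomes with Itga6, differed by 4.78 ± 0.67 (adjusted p = 0.000151), and Itga6 by 3.14 ± 0.45 (adjusted p = 0.000189). Dsg2, a desmosomal cadherin, had 138 and 249 in cTEC against 17.4 and 19.1 in tDC. Epcam, the pan-epithelial surface antigen, was dim, with 89.6 and 55.6 against 8.1 and 23.6, and its call (1.98 ± 0.48, adjusted p = 0.00944) was lost without cTEC array 1 (adjusted p = 0.0995) or tDC array 1 (adjusted p = 0.121). Cdh1, E-cadherin, did not pass, at 59.6 and 72.6 in cTEC and 53.8 and 65.2 in tDC (0.14 ± 0.34, adjusted p = 0.861). The 1 gene lower in cTEC was Cldn1, a tight-junction claudin, with 20.9 and 21.2 against 75.3 and 214 (−2.36 ± 0.44, adjusted p = 0.00164).

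Of 27 extracellular matrix genes, 12 were higher and 1 lower (median 1.08). The basement-membrane collagens Col4a1 and Col4a2 differed by 5.53 ± 0.57 (adjusted p = 1.16e-05) and 3.76 ± 0.42 (adjusted p = 2.27e-05), with Col4a1 at 354 and 412 in cTEC against 5.6 and 1.9 in tDC. Tnc, tenascin-C, had 1188 and 1052 in cTEC against 5.6 and 8.6 in tDC (6.57 ± 0.61, adjusted p = 5.29e-06). Col18a1, the endostatin-bearing collagen, had 344 and 304 against 19.2 and 6.4. Dcn, decorin, a proteoglycan best known from fibroblasts, had 425 and 219.8 against 8.6 and 16.8 (4.19 ± 0.49, adjusted p = 2.95e-05). Col1a1, the main fibrillar collagen chain, was lower in cTEC, with 5.4 and 11.7 against 31.6 and 36.7, and that call (adjusted p = 0.033) was lost without cTEC array 1 (adjusted p = 0.232), tDC array 1 (adjusted p = 0.0982) or tDC array 2 (adjusted p = 0.122).

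Developmental signalling genes were mixed, with 11 of 28 higher, 2 lower and a median of 0.50. The count of higher genes was 7 without tDC array 1, where the median was 0.31. Fgfr2, whose IIIb form is an epithelial receptor for Fgf7 and Fgf10, had 495 and 687 in cTEC against 13.7 and 17 in tDC (4.87 ± 0.35, adjusted p = 8.11e-07). Bmpr1a, a BMP receptor, had 19.9 and 20.1 against 0.7 and 0.4 (2.21 ± 0.40, adjusted p = 0.00108), and Fzd2, a Wnt receptor, 37.8 and 26.1 against 7.4 and 3 (1.90 ± 0.35, adjusted p = 0.00142). The 2 lower genes were Dkk3, a secreted Dickkopf-family protein (−2.27 ± 0.46, adjusted p = 0.00284), and Id2, an inhibitor of helix-loop-helix factors that dendritic cells need. Id2 had 749 and 528 in cTEC against 1341 and 1872 in tDC (−1.33 ± 0.38, adjusted p = 0.0255), and its call was lost without cTEC array 2 (adjusted p = 0.175) or tDC array 2 (adjusted p = 0.145). Of 12 imprinted growth genes 1 was higher, beside 11.5% of all tested genes. It was Peg3, a zinc-finger protein, with 106 and 92.7 against 10.3 and 1.6.

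The Notch genes held both ligand and target. Of 13, 6 were higher and 1 was lower (median 0.88), and with the sample number as a block 3 were lower. Dll1, a ligand, had 206 and 142 in cTEC against 2.9 and 12.8 in tDC (3.91 ± 0.39, adjusted p = 8.18e-06), and Jag2, another ligand, 264 and 142 against 31.1 and 14.8 (2.91 ± 0.57, adjusted p = 0.00209). Hey1, a transcriptional target of Notch, had 622 and 459 in cTEC against 10.4 and 6.5 in tDC (5.36 ± 0.38, adjusted p = 7.5e-07). Dtx1, Deltex-1, another Notch target, had 83.9 and 110.4 against 17.6 and 17. On the tDC side stood Notch4, a receptor, with 11.5 and 5.9 in cTEC against 229 and 134 in tDC (−3.77 ± 0.48, adjusted p = 6.83e-05). Notch1 had 253 and 206 in cTEC and 95.9 and 155 in tDC and did not pass (adjusted p = 0.0573), except with the sample number as a block over all 16 arrays (adjusted p = 0.0279), with a stricter filter (adjusted p = 0.0438) or without tDC array 2 (adjusted p = 0.0288).

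Called dendritic cell transcription factors lay on the tDC side: of 20 tested, 9 were lower and 11 did not pass, with a median of −1.11. The lower count was 4 without cTEC array 2 and 5 without tDC array 1, 6 in a fit of the 4 arrays alone and 4 in one of the 8 unfractionated wild-type arrays. On the cTEC side, Cebpb, a leucine-zipper factor, passed with the sample number as a block (1.41, adjusted p = 0.0163 over all 16 arrays and 0.0156 over 8), against 0.158 without it, and Gfi1, a zinc-finger repressor, in the fit of the 4 arrays (1.46, adjusted p = 0.0402). Batf3, the factor of cross-presenting dendritic cells, had 27.7 and 42.2 in cTEC against 1486 and 995 in tDC (−4.96 ± 0.49, adjusted p = 8.33e-06). Irf8, which the same subset needs, had 338 and 627 against 2157 and 2909.8 (−2.43 ± 0.39, adjusted p = 0.000474), and Irf4, of the other conventional subset, 64.6 and 82.8 against 622 and 391 (−2.68 ± 0.41, adjusted p = 0.00033). Zbtb46, a zinc-finger factor of conventional dendritic cells, had 4.2 and 4.6 in cTEC against 34.3 and 143 in tDC (−3.05 ± 0.58, adjusted p = 0.00167). Spi1, PU.1, had 16 and 25.7 in cTEC against 104 and 162 in tDC, and its call (−2.42 ± 0.70, adjusted p = 0.0263) was lost without cTEC array 1 (adjusted p = 0.16), cTEC array 2 (adjusted p = 0.0632), tDC array 1 (adjusted p = 0.0603) or tDC array 2 (adjusted p = 0.129).

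Of 24 dendritic cell surface and lineage genes, 17 were lower, 1 higher (Ly75, above) and 6 did not pass, with a median of −2.94. Flt3, the receptor whose ligand drives dendritic cell development, had 55 and 39 in cTEC against 1427 and 1294 in tDC (−4.74 ± 0.48, adjusted p = 9.45e-06). Ccr7, the homing receptor of maturing dendritic cells, had 3.2 and 15.5 against 307 and 218 (−4.37 ± 0.43, adjusted p = 8.41e-06). Genes of both conventional subsets were lower: Xcr1, the receptor of the Batf3-dependent subset, had 25.6 and 27.8 in cTEC against 134 and 142 in tDC (−2.18 ± 0.43, adjusted p = 0.00213). Sirpa, the CD172a receptor of the other subset, had 14.5 and 10.2 against 158 and 141 (−3.18 ± 0.31, adjusted p = 6.41e-06). Il12b, the p40 subunit of interleukin-12, had 4.5 and 17 against 371 and 431, and Ebi3, a related cytokine subunit, 13.9 and 5.6 against 267 and 312. The shares of the subsets among the sorted cells were not measured.

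The main chains of MHC class II did not pass the test. Of 13 presentation genes tested, 4 were lower and 9 did not pass, with a median of −0.87 that was −0.54 without cTEC array 2. Cd74, the invariant chain, had 1769 and 3692 in cTEC and 2312 and 4532 in tDC (−0.34 ± 0.48, adjusted p = 0.735). H2-Ab1, a class II beta chain, had 1669 and 1595 in cTEC and 3056 and 3147 in tDC (−0.92 ± 0.39, adjusted p = 0.13). H2-Aa, its alpha chain, had 1888 and 4246 in cTEC and 166 and 3639 in tDC, so that 1 tDC array lay below both cTEC arrays and the difference, 1.85 ± 1.0, had a wide error (adjusted p = 0.254). Without tDC array 1 that difference was −0.36 (adjusted p = 0.846), and without tDC array 2 H2-Aa passed as higher (4.05, adjusted p = 0.00123). H2-Ea stayed under the filter on all 4 arrays. A miss of the threshold does not show equal levels: for H2-Ab1 the tDC arrays were both above the cTEC arrays.

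The 4 lower genes encode accessory proteins of the class II pathway. Ifi30, the lysosomal thiol reductase GILT, had 99.2 and 156 in cTEC against 2461 and 1944 in tDC (−4.08 ± 0.36, adjusted p = 3.6e-06). H2-Ob, a chain of the peptide-loading modulator H2-O, had 13.3 and 25 against 224 and 182 (−3.15 ± 0.50, adjusted p = 0.000409). H2-DMa and H2-DMb1, chains of the peptide exchanger H2-DM, were the other two lower genes, at −1.34 ± 0.41 (adjusted p = 0.0346) and −1.62 ± 0.44 (adjusted p = 0.0189). H2-DMb2, another chain, passed without cTEC array 1 (−1.75, adjusted p = 0.0425). The H2-DMa call was lost without cTEC array 1 (adjusted p = 0.204), cTEC array 2 (adjusted p = 0.0644), tDC array 1 (adjusted p = 0.134) or tDC array 2 (adjusted p = 0.0968), and the H2-DMb1 call without cTEC array 2 (adjusted p = 0.24) or tDC array 1 (adjusted p = 0.17), which left 2 without cTEC array 2 and 2 without tDC array 1.

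Costimulation genes were lower in 7 of 11 cases, with a median of −1.54, and the lower count was 4 without tDC array 1. Cd86, a ligand of CD28, had 17.6 and 21.3 in cTEC against 309 and 547 in tDC (−4.10 ± 0.48, adjusted p = 3.08e-05). Cd40, the receptor for CD40 ligand, had 266 and 216 in cTEC against 853 and 874 in tDC (−1.83 ± 0.31, adjusted p = 0.000637). Cd48, a ligand of CD244, had 34.6 and 57.4 against 649 and 668 (−3.74 ± 0.47, adjusted p = 5.72e-05), and Tnfsf9, the 4-1BB ligand, 7.7 and 23.9 against 165 and 102 (−2.83 ± 0.42, adjusted p = 0.000228). Icam1, an adhesion ligand, had 497 and 236 in cTEC and 348 and 243 in tDC, and the groups overlapped (adjusted p = 0.775).

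Lysosomal proteases split by member. Of 25 cathepsins, lysosomal enzymes and inhibitors, 5 were higher, 13 lower and 7 did not pass (median −1.31). Ctsl, the cathepsin that trims the invariant chain in cortical epithelium, had 1249 and 2960.2 in cTEC against 112 and 64.7 in tDC (4.42 ± 0.49, adjusted p = 2.06e-05). Ctss, which does so in bone marrow-derived cells, had 189 and 497 in cTEC against 3066 and 3905 in tDC (−3.48 ± 0.40, adjusted p = 2.87e-05). The 2 genes thus differed in opposite directions on the same arrays, with no overlap for either. High Ctsl was not particular to cTEC among the wild-type groups. It had 1617 and 798 in mTEC, where cTEC minus mTEC did not pass (0.76, adjusted p = 0.389). In tMPh, also bone marrow-derived, it had 1709 and 1115, and tDC lay below tMPh (−3.94, adjusted p = 0.000136). Ctsh and Ctsz, other cysteine cathepsins, were also lower, with 36.2 and 92.3 and then 34.8 and 75.7 in cTEC against 1348 and 1569.8 and then 1268 and 861 in tDC. Ctsc, the dipeptidyl peptidase, differed by −3.64 ± 0.40 (adjusted p = 2.1e-05), and Gusb, beta-glucuronidase, by −4.19 ± 0.32 (adjusted p = 1.39e-06).

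The remaining genes higher in cTEC in that list were Ctsf, another cysteine cathepsin (2.44 ± 0.38, adjusted p = 0.000357), Cstb, a cytosolic cathepsin inhibitor (2.09 ± 0.34, adjusted p = 0.000563), Serpinb6a and Lamp2. Serpinb6a, a serine protease inhibitor, had 1186 and 822 in cTEC against 62.2 and 56.5 in tDC, while its relative Serpinb9, an inhibitor of granzyme B, had 74.5 and 63.6 against 736 and 878, the other way (−3.46 ± 0.27, adjusted p = 1.33e-06). Lamp2, a lysosomal membrane protein, differed by 3.06 ± 0.69 (adjusted p = 0.00617), a call lost without cTEC array 2 (adjusted p = 0.0537) or tDC array 1 (adjusted p = 0.0856). Cst3, the secreted inhibitor cystatin C, was lower in cTEC, with 872 and 887 against 2585 and 3956 (−1.86 ± 0.35, adjusted p = 0.00156).

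MHC class I loading genes were called lower about as often as genes at large, of which 7.99% were lower. None was called higher, beside 11.5% of all tested genes. Of 19 genes 2 were lower and 17 did not pass, with a median of −0.44. H2-K1, a class I heavy chain, had 1858 and 5461 in cTEC and 2263 and 4308 in tDC (0.03 ± 0.56, adjusted p = 0.983), and the spread between arrays of a group exceeded the difference. Psme1, a subunit of the PA28 proteasome activator, had 137 and 231 in cTEC against 2352 and 1639.5 in tDC (−3.43 ± 0.45, adjusted p = 8.7e-05). Psmb8, a catalytic subunit of the immunoproteasome, was lower (−1.52 ± 0.40, adjusted p = 0.016), a call lost without cTEC array 1 (adjusted p = 0.0646), cTEC array 2 (adjusted p = 0.0817) or tDC array 1 (adjusted p = 0.121). Psmb11 and Prss16, cortical protease genes, had no probe set paired with them alone and were not analysed here.

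**Figure D3:**
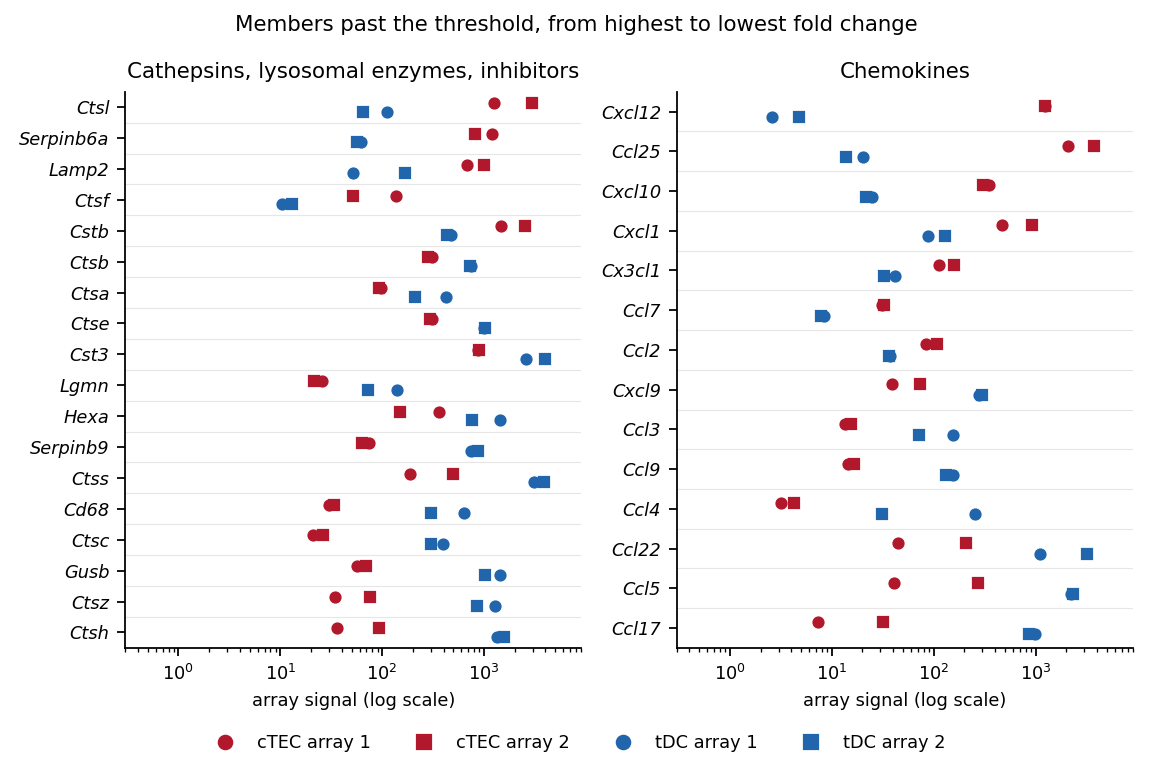
Array signals (horizontal log axis) of the called cathepsins, lysosomal enzymes and inhibitors (left panel) and chemokines (right panel), 1 gene a row in order of the difference, with cTEC in red, tDC in blue, array 1 as circles and array 2 as squares. Ctsl at 1249 and 2960.2 in cTEC against 112 and 64.7 in tDC stands opposite Ctss at 189 and 497 against 3066 and 3905.

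Interferon response genes were likewise divided, with 7 of 26 higher, 6 lower and a median of −0.31, which was 0.22 without tDC array 1 and −0.17 without tDC array 2. On the cTEC side stood GTPases that interferon gamma induces: Iigp1 had 238 and 280 in cTEC against 15.2 and 18 in tDC (3.62 ± 0.39, adjusted p = 1.6e-05), and Igtp 667 and 650.3 against 136 and 83.5 (2.58 ± 0.45, adjusted p = 0.000912). Cxcl10, a CXCR3 ligand, had 346 and 306 in cTEC against 24.6 and 21.9 in tDC (3.56 ± 0.46, adjusted p = 7.43e-05), whereas Cxcl9, another CXCR3 ligand, had 39.2 and 72.9 against 276 and 296 (−2.31 ± 0.40, adjusted p = 0.000812). On the tDC side stood Mx1, an antiviral GTPase, with 10.7 and 9.8 in cTEC against 443 and 304 in tDC (−4.63 ± 0.37, adjusted p = 1.82e-06). Irf7, the factor that amplifies type I interferon, had 22.1 and 20.1 against 372 and 326 (−3.77 ± 0.33, adjusted p = 3.13e-06).

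Chemokines were split evenly, 7 of 21 higher and 7 lower, with a median of 0.72 that was 0.04 without cTEC array 2. The higher count was 3 without cTEC array 2, 3 without tDC array 1 and 4 without tDC array 2, and 4 with the 8 unfractionated arrays. Beyond Cxcl12 and Ccl25, Cxcl1, a neutrophil attractant, was higher, with 471 and 926 in cTEC against 87.9 and 129 in tDC, a call (2.58 ± 0.57, adjusted p = 0.00524) lost without cTEC array 2 (adjusted p = 0.0653) or tDC array 1 (adjusted p = 0.0502). The tDC side held the CCR4 ligands Ccl17, with 7.4 and 31.7 in cTEC against 991 and 869.6 in tDC (−5.47 ± 0.51, adjusted p = 4.95e-06), and Ccl22, with 44.3 and 206 against 1094 and 3222 (−4.21 ± 0.70, adjusted p = 0.000636). Ccl9, a CCR1 ligand, had 14.5 and 16.6 in cTEC against 156 and 132 in tDC. Of 19 chemokine and homing receptors, 6 were lower and 1, Ackr4, was higher (median −0.83, but −0.13 without cTEC array 1). Ccr2, the monocyte receptor for Ccl2, had 7.8 and 7.4 in cTEC against 270.1 and 312 in tDC (−4.57 ± 0.43, adjusted p = 5.71e-06).

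Called genes of innate sensing and leukocyte signalling lay on the tDC side. Of 21 Toll-like receptor and inflammasome genes 8 were lower and 13 did not pass (median −0.71, but −0.25 without cTEC array 2 and −0.46 without tDC array 1), and the lower count was 5 without cTEC array 2 and 5 without tDC array 1. Tnf had 2.9 and 6.5 in cTEC against 239.7 and 272 in tDC (−4.80 ± 0.41, adjusted p = 2.64e-06), Il1b had 13.1 and 38.2 against 1823 and 679, and Il18 had 2 and 1.7 against 65 and 53.5. These 3 are inflammatory cytokines. Ly86, MD-1, which pairs with the receptor CD180, differed by −5.23 ± 0.43 (adjusted p = 2.41e-06). Of 35 leukocyte receptor signalling and oxidase genes, 17 were lower and 18 did not pass (median −1.64). Tyrobp, the adaptor DAP12, had 16.4 and 59.3 in cTEC against 1615 and 901 in tDC (−5.04 ± 0.55, adjusted p = 1.8e-05). Lat2, a linker adaptor, had 16.3 and 19.3 against 369 and 475, Inpp5d, the phosphatase SHIP-1, 21.6 and 44.1 against 469.5 and 643, and Ncf4, a subunit of the phagocyte oxidase, 2.4 and 13.8 against 268 and 162.

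Integrins were divided, with 4 of 19 higher and 7 lower (median −0.27, but −0.64 without cTEC array 2 or tDC array 1 and −0.51 without tDC array 2), and the higher count was 2 without cTEC array 1, 1 without cTEC array 2 and 1 without tDC array 1, and 2 with the 8 unfractionated arrays. Itgae, CD103, had 6.7 and 12.8 in cTEC against 441 and 418 in tDC (−4.93 ± 0.50, adjusted p = 9.93e-06), and its partner Itgb7 153 and 136 against 1231 and 733 (−2.68 ± 0.41, adjusted p = 0.000284). Vcam1, the ligand of VLA-4 on thymocytes, was higher in cTEC, with 1498 and 1914 against 180.1 and 551 (2.41 ± 0.56, adjusted p = 0.00723), a call lost without cTEC array 2 (adjusted p = 0.0539) or tDC array 1 (adjusted p = 0.109). The other higher genes lost their calls too: Itga3 without cTEC array 1 or tDC array 2 (adjusted p = 0.0636 to 0.0685), Itgav without cTEC array 2 or tDC array 1 (adjusted p = 0.132 to 0.241), and Emb without cTEC array 1, cTEC array 2, tDC array 1 or tDC array 2 (adjusted p = 0.0791 to 0.0972). With another probe set in place of the one of shared probes, Itgav differed by 0.15 (adjusted p = 0.888). Of 18 complement and coagulation genes, 6 were lower and 3 higher (median −0.38, but −0.11 without cTEC array 1, −0.73 without tDC array 1 and −0.01 without tDC array 2). Procr, the protein C receptor, had 30 and 36.7 in cTEC against 1383 and 744 in tDC (−4.74 ± 0.35, adjusted p = 8.82e-07), and C1qa, a chain of C1q, 32.9 and 55.5 against 525 and 300.5. F3, tissue factor, went the other way, with 132 and 45.8 against 5.3 and 3 (3.23 ± 0.46, adjusted p = 0.000184), as did C1ra and Thbd, the last of which was lost without cTEC array 2 or tDC array 1 (adjusted p = 0.318 to 0.343).

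Cell cycle genes were lower in 10 of 35 cases and higher in 1 (median −0.81), but the lower count was 3 without cTEC array 1, 6 without tDC array 1 and 6 without tDC array 2, and 6 with the 8 unfractionated arrays. Ccnd1, cyclin D1, had 85.6 and 116 in cTEC against 629 and 1102 in tDC (−3.0 ± 0.42, adjusted p = 0.000141), and Aurka, a mitotic kinase, 36.1 and 46.2 against 191 and 134 (−1.85 ± 0.38, adjusted p = 0.00327). Mki67, the proliferation antigen Ki-67, did not pass, at 259 and 368 in cTEC and 620.2 and 867 in tDC (adjusted p = 0.0743), but passed with the sample number as a block (adjusted p = 0.0386 over all 16 arrays and 0.0325 over 8). Myc was the gene higher in cTEC, with 29.6 and 19.6 against 8.1 and 11.4 (adjusted p = 0.0391), a call lost without cTEC array 1 (adjusted p = 0.263), tDC array 1 (adjusted p = 0.215) or tDC array 2 (adjusted p = 0.0615), and with the block over 8 arrays (adjusted p = 0.0685). Of 25 immediate early and stress genes, 20 did not pass (median −0.17), and that median was 0.18 without cTEC array 1, −0.35 without cTEC array 2, −0.40 without tDC array 1, 0.07 without tDC array 2 and 0.16 under quantile normalisation. Egr2, a zinc-finger factor, was lower (−2.27 ± 0.31, adjusted p = 0.000129), as were Gadd45b and Nr4a1, while Gadd45a, a DNA damage response gene, was higher (2.25 ± 0.35, adjusted p = 0.000356), as was Jun. The Nr4a1 call was lost without cTEC array 1 or tDC array 1 (adjusted p = 0.109 to 0.124), and the Jun call without cTEC array 1 or tDC array 1 (adjusted p = 0.131 to 0.169). Fos was bright in both, at 1756 and 2481 in cTEC and 1968 and 2797 in tDC (adjusted p = 0.807).

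Of 34 glutathione, retinoid and oxidative enzymes, 10 were higher and 3 lower (median 0.30), and the higher count was 6 without tDC array 1. Cyp1b1, a cytochrome P450 that metabolises oestrogens and retinoids, had 332 and 286 in cTEC against 0.9 and 6.8 in tDC (5.27 ± 0.69, adjusted p = 8.7e-05). Gsta4, a glutathione transferase, had 55.9 and 38.2 against 1.3 and 2.3, while Gsto1, one of another class, had 46.1 and 54.3 against 492 and 293, the other way (−2.81 ± 0.35, adjusted p = 5.44e-05). The other lower genes were Rbp4, the retinol carrier, and Sod1, superoxide dismutase, whose call was lost without cTEC array 1, cTEC array 2 or tDC array 1 (adjusted p = 0.0524 to 0.116).

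Tissue-restricted antigens, the genes for which medullary epithelium is known, numbered 37 tested: 5 were higher, 1 lower and 31 did not pass. Over all tested genes 11.5% were higher and 7.99% lower. Most of the list was dim: 30 of the 42 on the array read at most 17.3 on every cTEC and tDC array. The scale understates changes between such dim signals, so a miss there does not show equal levels. The list median was 0.22, but 0.13 without tDC array 1 and 0.35 without tDC array 2. The higher count was 3 without cTEC array 2, 3 without tDC array 1 and 3 without tDC array 2, 3 with the constant at the 40th percentile and 2 with the 8 unfractionated arrays. Penk, proenkephalin, had 704 and 533 in cTEC against 20.1 and 15.7 in tDC (4.77 ± 0.41, adjusted p = 2.9e-06), and Cck, cholecystokinin, 59.9 and 49 against 0.5 and 0.9 (3.42 ± 0.32, adjusted p = 5.71e-06). The other higher genes were Reg3g, an intestinal lectin, Csn2, and Myh4, a muscle myosin, and the lower one was Mbp, myelin basic protein. Csn2, a milk casein, had 34.9 and 119 against 11.7 and 10.3 (2.15 ± 0.55, adjusted p = 0.0135), and its call was lost without cTEC array 2 (adjusted p = 0.179), tDC array 1 (adjusted p = 0.055) or tDC array 2 (adjusted p = 0.0605). Reg3g was lost without cTEC array 2, tDC array 1 or tDC array 2 (adjusted p = 0.0711 to 0.207) and with the sample number as a block over 8 arrays (adjusted p = 0.0648). Myh4 was lost without cTEC array 1 or tDC array 1 (adjusted p = 0.0896 to 0.0913), and Mbp without cTEC array 1 or tDC array 2 (adjusted p = 0.0586 to 0.133). Aire, the regulator of many such genes, read 37.8 and 113 in cTEC and 65.2 and 36.1 in tDC, and the groups overlapped (0.41 ± 0.51, adjusted p = 0.69).

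**Figure D4:**
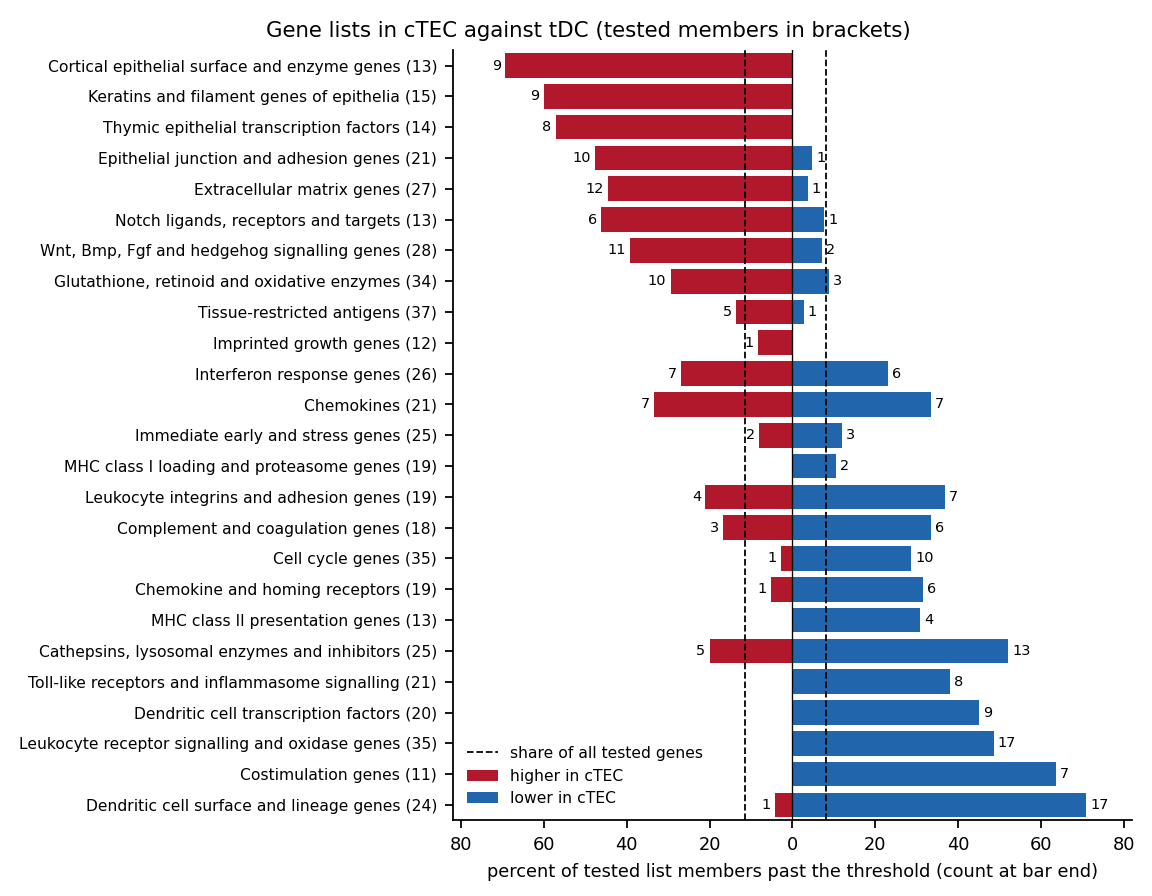
Percent of the tested members of each gene list that were higher (red bars, to the left) or lower (blue bars, to the right) in cTEC than in tDC, with the count at each bar's end, the tested members in brackets and dashed lines at the shares of all tested genes, 11.5% and 7.99%. Cortical genes have 9 of 13 to the left and dendritic cell surface genes 17 of 24 to the right, while chemokines have 7 on each side.

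The other wild-type groups place these levels. The comparison of cTEC with mTEC shares the cTEC arrays, and that of tDC with tMPh shares the tDC arrays, so each is given by its own values. Of the 9319 probe sets, 396 (4.25%) were higher and 1038 (11.1%) lower in cTEC than in mTEC. Of the 13 cortical genes 5 were higher than in mTEC and 0 lower, while of 15 keratin and filament genes 1 was higher and 8 were lower. Cxcl12 had 1245 and 1249 in cTEC against 54.5 and 54.6 in mTEC (4.40, adjusted p = 0.000129), and Enpep 999 and 789.9 against 55.4 and 65.5 (3.78, adjusted p = 0.000437). Hey1 and Pax1 were also higher than in mTEC, by 3.04 (adjusted p = 7.57e-05) and 2.83 (adjusted p = 0.000681). Krt8, with 1846 and 2938 in cTEC and 2033 and 2308 in mTEC, did not pass (0.10, adjusted p = 0.958). Some genes placed on the tDC side above were bright in mTEC too. Irf4 had 965 and 960.5 in mTEC against 622 and 391 in tDC, and Ccl9 1131 and 637 against 156 and 132. Adam8 had 1009 and 1135 in mTEC against 2276 and 1584 in tDC. Each was lower in cTEC than in mTEC (−3.63, −5.39 and −4.45). Itgax was dim in mTEC, at 39.1 and 54.4, and did not pass there (−0.75, adjusted p = 0.207). Of the 37 tissue-restricted antigens, 29 were lower in cTEC than in mTEC and 0 higher, with a median of −2.51. On all 4 cTEC and tDC arrays, 30 of the 42 on the array read at most 17.3. Where tested, such members entered through other arrays, medullary ones among them, so their being lower in cTEC was partly set by the filter.

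Between tDC and tMPh, 338 probe sets (3.63%) were higher and 524 (5.62%) lower in tDC. Of 24 dendritic cell surface genes 11 were higher and 2 lower in tDC than in tMPh, and of 17 macrophage markers 0 were higher and 14 lower. Flt3 had 1427 and 1294 in tDC against 60.6 and 37.4 in tMPh (4.70, adjusted p = 2.49e-05), Ccl17 had 991 and 869.6 against 3.9 and 2.8 (6.84, adjusted p = 2.76e-06), and Napsa 2391 and 1808 against 71.8 and 3.1 (6.40, adjusted p = 0.00146). Tyrobp, by contrast, had 1615 and 901 in tDC and 1083 and 2159 in tMPh and did not pass (−0.34, adjusted p = 0.822). Both macrophage arrays also carried epithelial transcripts, array 1 more: Krt8 was at 1213 and 172 and Ccl25 at 1834 and 263 on tMPh arrays 1 and 2. On the tDC arrays Krt8 was at 59.8 and 22 and Ccl25 at 20.4 and 13.9. Leaving out tMPh array 1 gave 351 higher and 413 lower probe sets, and leaving out array 2 gave 247 and 539, settings chosen after seeing the data.

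Markers of other cells were read on the same arrays. The 21 tested thymocyte and T cell genes summed to 5784 and 9770.2 in cTEC against 3910 and 3799 in tDC, and to 1521 and 1329 in mTEC. For 17 of the 21 both cTEC arrays lay above both tDC arrays, as they did for 29.7% of all tested probe sets. The test called 3 higher, namely Cd3e, Cd247 and Rag2, beside 10.5% of all probe sets. That count was 1 without cTEC array 1, 0 without cTEC array 2, 0 without tDC array 1 and 1 without tDC array 2, 5 with the sample number as a block, 5 with the 4 arrays alone or without shared probes, and 1 under quantile normalisation or a constant of 1. Cd247 was lost without cTEC array 1, cTEC array 2, tDC array 1 or tDC array 2 (adjusted p = 0.0658 to 0.219), and Rag2 without cTEC array 1, cTEC array 2, tDC array 1 or tDC array 2 (adjusted p = 0.0745 to 0.236). With the block over 8 arrays Rag2 had an adjusted p of 0.0507. Cd3e, a chain of the T cell receptor complex, had 45.1 and 95.7 in cTEC against 4.1 and 9.6 in tDC (2.65 ± 0.61, adjusted p = 0.00729), a call lost without cTEC array 2 or tDC array 1 (adjusted p = 0.07 to 0.0851). Rag1, the recombinase of immature lymphocytes, had 405 and 903 against 77.9 and 184 (2.29 ± 0.77, adjusted p = 0.0539), and passed in 7 alternative fits (adjusted p = 0.00701 to 0.0498), among them those with the sample number as a block (adjusted p = 0.0178 over all 16 arrays and 0.00701 over 8). Cd8a, a coreceptor of thymocytes that some dendritic cells also carry, had 692 and 1141 in cTEC and 1422 and 1107 in tDC (−0.50 ± 0.67, adjusted p = 0.72). The summed T cell signal was larger on both cTEC arrays than on either tDC array, and its part in the results on cTEC was not tested.

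Of 17 macrophage markers, 9 were lower in cTEC and 1, Vcam1, was higher (median −1.91), and 18 on the array summed to 2346 and 2972 in cTEC against 3954 and 3764 in tDC, and to 15883 and 27528 in tMPh. Without Vcam1 the sums were 848 and 1058 in cTEC against 3774 and 3213 in tDC. Lyz2, lysozyme, had 18.5 and 78.3 in cTEC against 903 and 852 in tDC (−4.33 ± 0.45, adjusted p = 1.35e-05). Adgre1, F4/80, read 2.7 and 3.1 in cTEC and 68 and 35 in tDC, and its call (−2.81 ± 0.60, adjusted p = 0.00405) was lost without tDC array 1 (adjusted p = 0.0524). Siglec1, of tissue macrophages, stayed under the filter. The 13 medullary markers on the array summed to 749 and 885 in cTEC against 2227 and 2208 in tDC, and to 6746 and 8964 in mTEC. Of the 11 tested 4 were lower, Cd40, Spib, Ctse and Cd80, and 1 was higher, Fezf2. The lower count was 1 without cTEC array 1, 1 without tDC array 1 and 2 without tDC array 2, with Spib lost without cTEC array 1 or tDC array 1 (adjusted p = 0.0647 to 0.104) and Cd80 without cTEC array 1, tDC array 1 or tDC array 2 (adjusted p = 0.0759 to 0.194). Fezf2, a regulator of self-antigen expression, had 36.4 and 83.9 against 10.2 and 10.6 (1.99 ± 0.61, adjusted p = 0.0365), lost without cTEC array 2 (adjusted p = 0.265), tDC array 1 (adjusted p = 0.134) or tDC array 2 (adjusted p = 0.103). Ctse, cathepsin E, had 311 and 296 in cTEC against 1009 and 1026 in tDC (−1.73 ± 0.47, adjusted p = 0.0197). That call was lost without cTEC array 1 (adjusted p = 0.0846), cTEC array 2 (adjusted p = 0.0892), tDC array 1 (adjusted p = 0.0816) or tDC array 2 (adjusted p = 0.072), and a different probe set of the gene gave a difference of 0.21 (adjusted p = 0.876).

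Calls in the remaining marker lists stand beside shares of 11.5% higher and 7.99% lower over all tested genes. Of 19 fibroblast and mural cell genes, Dcn, Acta2, Tagln and Myl9 were higher, and S100a4 and Col1a1 lower. The 20 on the array summed to 1406 and 1671 in cTEC against 1124 and 949 in tDC, and without Thy1, which thymocytes also carry, to 943.5 and 665 against 910 and 639. S100a4, a calcium-binding protein that leukocytes also make, had 14 and 21.9 in cTEC against 632 and 338 in tDC. Of 14 endothelial genes Vwf and Eng were lower (sums 149 and 236 against 437 and 397), and of 8 erythroid genes Car2 was (97.1 and 91.2 against 148 and 174). Of 12 B cell genes Jchain was higher. The 15 on the array summed to 865 and 1767 in cTEC against 1040 and 996 in tDC, and without Ighm, which did not pass, to 306 and 393.5 against 294 and 305. Plasmacytoid genes Irf7 and Spib were lower among 8 (sums 358 and 634 against 853 and 718). Of 15 neutrophil, mast cell and natural killer genes, Mmp9 was higher and Klrd1, Klrk1 and Ngp were lower. The 20 on the array summed to 869 and 697 in cTEC against 364 and 394 in tDC, but without Mmp9 to 256 and 319 against 361 and 393. Calls were lost for Eng without cTEC array 1, tDC array 1 or tDC array 2 (adjusted p = 0.0833 to 0.29), Jchain without cTEC array 1, cTEC array 2 or tDC array 1 (adjusted p = 0.0692 to 0.227), Spib without cTEC array 1 or tDC array 1 (adjusted p = 0.0647 to 0.104), Klrk1 without cTEC array 1 or tDC array 1 (adjusted p = 0.0505 to 0.067), and Ngp without tDC array 1 (adjusted p = 0.0719). The part of any of these cells in the results was not tested.

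**Figure D5:**
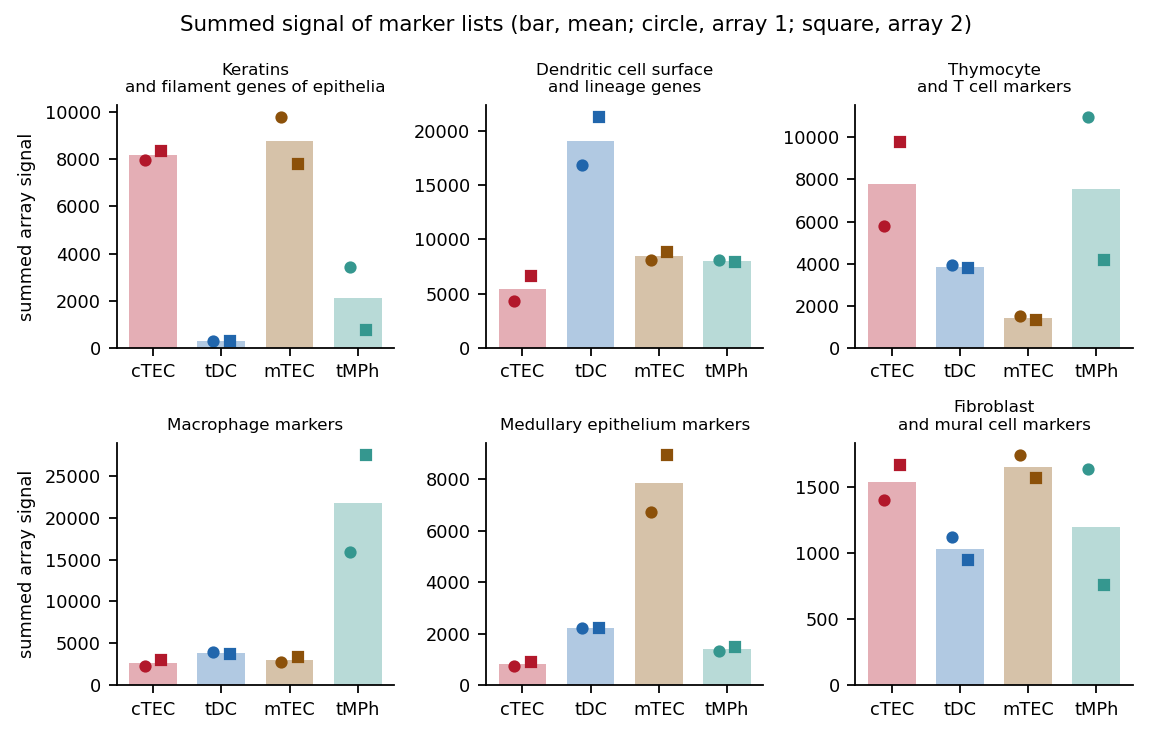
Summed array signals (vertical axis, linear) of 6 marker lists in cTEC, tDC, mTEC and tMPh, with bars at the mean of 2 arrays, circles for array 1 and squares for array 2. The thymocyte sum is 5784 and 9770.2 on the cTEC arrays against 3910 and 3799 on the tDC arrays, and the macrophage sum is highest on the tMPh arrays.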

How the data were processed

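Total RNA of flow-sorted thymic cells was measured on 16 Affymetrix mouse arrays, 2 a group. The deposited values are linear intensities, 1 per probe set, and the 2% trimmed mean was 100.06 to 100.07 on every array. The software used by the authors is not given in the sources used here. Of 12488 probe sets, 66 controls were left out and 3103 stayed at or under 17.3, the 40th percentile, on all but at most 1 array, which left 9319. These were set to log2(intensity + 4.8), the constant being the 20th percentile, and fitted over all 16 arrays with limma 3.58.1 in R 4.3.3 (lmFit, eBayes with trend, 8 residual and 5.97 prior degrees of freedom), with Benjamini-Hochberg adjustment over all 9319 and a threshold of 0.05. The fit was tested on simulated data whose arrays varied independently. That test does not cover the shared deviations of samples with the same number, described below. Tables and figures used Python 3.11.15, pandas 2.3.3, numpy 2.4.6 and matplotlib 3.10.9.

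Of the 12422 probe sets, 10833 are paired with 1 gene symbol, 396 with several and 1193 with none; 10817 symbols matched the RefSeq table, 16 kept the older name, and probe sets with several or no symbols stay unnamed. Each gene stands by its brightest probe set, and other probe sets of a gene can differ. For Enpep, Dsg2, Ccnd1 and Inpp5d, among others, another tested probe set did not pass. By the suffix of their probe set, Krt17, Ctse, Iigp1, Itgav, C1ra, Thbd, Gadd45b, Penk, Meis1, Lama3, Flt3, Cd86, Cd80 and H2-DMb1 were read with probes that other transcripts may share.

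Groups come from the sample titles. Samples with the same number deviated together from their group means (r = 0.400 for cTEC with tDC, 0.279 to 0.526 over the 6 pairs of wild-type groups), so the numbers of the titles were taken to pair the samples; the fit without the block is the one reported and the blocked fits are alternatives. Genes were named by rule: Pax1 and Itgax, the 15 highest and 15 lowest called genes, up to 4 called members of each list with the smallest p, and the 3 brightest members of each marker list. Other list members were named after their values were seen. The members and lists were chosen with earlier results of these data known. The 34 lists held 834 genes, of which 683 were on the array and 619 were tested (114 higher, 132 lower, 373 not past). Alternatives were quantile normalisation, other constants and filters, eBayes without trend, fits over the 4 arrays compared or the 8 unfractionated wild-type arrays, sample-number blocks, each array left out, no probe sets of shared probes, and gene means. The number of arrays limits the precision.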

Additional observations from a re-analysis of the deposited data

How the results depend on the processing

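The counts of 983 higher and 669 lower probe sets stayed within 1.5 times under quantile normalisation (818 and 705), a constant of 1 (1000 and 658), a constant at the 40th percentile (927 and 683), no filter (925 and 629), a stricter filter (912 and 655), no trend (969 and 660), the 4 arrays alone (768 and 466), the 8 unfractionated arrays (748 and 498), no shared probes (841 and 564) and gene means (887 and 606). Quantile normalisation shifted the median difference by −0.15. Leaving out 1 array gave 631 to 820 higher and 404 to 569 lower probe sets, and 1040 to 1389 calls in all. With the sample number as a replicate block the counts were 1246 and 845 over all 16 arrays, and 1194 and 842 over 8. Among the 140 genes named by rule, the block changed the call of Rag2 (adjusted p = 0.0507 over 8 arrays) and of Dntt (1.55, adjusted p = 0.0114 over 8 arrays) and no other. Of 130 called genes, 111 stayed past the threshold in all 16 alternatives; calls were lost for 14 without cTEC array 1, 9 without cTEC array 2, 16 without tDC array 1 and 7 without tDC array 2. All 130 kept their sign within both sample numbers, which being called largely fixed. Signs turned for Ctse without shared probes (0.21, adjusted p = 0.876), for Ighm, which was not called, without cTEC array 2 (−0.36, adjusted p = 0.929, in a range of −0.36 to 0.93 without single arrays) and within sample number 1 (−0.41), and for Cd8a, also not called, within sample number 2 (0.0437). Klf1 passed under quantile normalisation (−1.10, adjusted p = 0.0354). List medians kept their sign in every setting for 27 of 34 lists. Calls of named genes also ended (adjusted p) with the 8 unfractionated arrays for Cd247, Csn2, Emb, Fezf2, H2-DMb1, Id2, Itgav, Jun, Krt10, Krt19, Ly75, Myc, Myh4, Psmb8, Rag2, Reg3g, Sod1, Spi1 and Thbd (0.0506 to 0.111), and with the 4 arrays alone for Cd80, Eng, H2-DMa, H2-DMb1, Id2, Itgav, Jun, Ly75, Myc, Rag2, Sod1 and Thbd (0.0633 to 0.167). They ended under quantile normalisation for Cd247, Fezf2, H2-DMa, Jchain, Krt10, Myc and Rag2 (0.0551 to 0.137), and with the constant at the 40th percentile for Col1a1, Fezf2, Krt10, Krt19, Myc, Myh4, Reg3g and Thbd (0.0567 to 0.165). A constant of 1 ended those of Cd247, Rag2 and Spi1 (0.0554 to 0.129), no filter those of Cd247 and Myc (0.0662 to 0.0664), leaving out shared probes those of Itgav and Thbd (0.368 to 0.888), and gene means those of Col1a1, Ctse, Itgav, Krt19 and Thbd (0.0709 to 0.196). List medians moved by over 1.5 times or turned in 8 to 13 of 34 lists without single arrays, 16 with the constant at the 40th percentile, 11 under quantile normalisation, 10 with a stricter filter, 10 without shared probes, 7 with a constant of 1 and 5 with gene means. The marker sums without their brightest cTEC member were chosen after seeing the data. The causes of these changes were not tested.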
